A study of Mus musculus with 16 samples.

Results

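The gene Armh4 and 9 genes of the mTOR complexes were followed by bulk RNA sequencing through 16 mouse hearts. The members were the rows of the deposited count table named Armh4, Rictor, Mapkap1, Mlst8, Mtor, Rptor, Prr5, Prr5l, Deptor and Sgk1. All 10 were found among 18346 genes, and all 10 were among the 13373 genes that passed the filter on low counts. The mice were C57BL/6J, either wild-type (WT) or with a systemic knockout of Armh4 (KO), and were killed at 8 weeks (young) or 25 months (aged). Each of the 4 groups (both genotypes at both ages) held 4 hearts, which the labels call independent biological replicates. The labels name no drug treatment, and all animals shared housing and diet. The knockout acts in the whole body, so differences in the heart can come from its absence in any tissue, and the sources used here do not give how the allele was made. Hearts are named by group and animal number, as in WT_Aged_1. For the 4 hearts labelled WT and young, the sample titles start with WO, and the genotype label was followed.

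mTOR is a protein kinase that works in 2 complexes. Both hold the kinase itself (Mtor), the stabilising subunit Mlst8 and the inhibitory subunit Deptor. mTORC1 adds the scaffold raptor (Rptor), senses amino acids and growth factors, and promotes protein synthesis and cell growth. mTORC2 adds rictor (Rictor) and SIN1 (Mapkap1), with protor proteins (Prr5 and Prr5l) as accessory subunits, and phosphorylates kinases of the AGC family, among them Akt and SGK1 (Sgk1). Armh4 encodes a membrane protein with an armadillo-like helical domain that has been described as an upstream regulator of mTORC2. In the heart, mTOR signalling is known for its part in growth of the muscle, and Sgk1 for control of ion channels and transporters and for induction by glucocorticoids.

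The windows below show start sites of the targeted gene Armh4 and of the 2 mTOR-related members with a called ageing change, Prr5 and Sgk1. No result below rests on them, and of the 6 windows of Sgk1 only starts 5 and 6 are printed. RefSeq start-site windows (250 bases before and 50 after each start, mouse build GRCm38.p6) were matched by symbol for 9 of the 10 members. The windows of Prr5 and Sgk1 are numbered in the order of the RefSeq table. Sequences run 5′ to 3′ on the strand of the gene, and capitals mark matches, on either strand, to one of 5 motifs.
Armh4 (chr14:49783334-49783633, - strand): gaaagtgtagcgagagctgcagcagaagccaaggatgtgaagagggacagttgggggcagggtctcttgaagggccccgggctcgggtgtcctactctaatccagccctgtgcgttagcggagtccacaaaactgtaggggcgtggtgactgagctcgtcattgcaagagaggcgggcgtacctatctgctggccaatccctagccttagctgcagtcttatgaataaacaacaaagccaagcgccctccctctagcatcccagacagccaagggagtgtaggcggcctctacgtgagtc
Prr5 start 1 (chr15:84662956-84663255, + strand): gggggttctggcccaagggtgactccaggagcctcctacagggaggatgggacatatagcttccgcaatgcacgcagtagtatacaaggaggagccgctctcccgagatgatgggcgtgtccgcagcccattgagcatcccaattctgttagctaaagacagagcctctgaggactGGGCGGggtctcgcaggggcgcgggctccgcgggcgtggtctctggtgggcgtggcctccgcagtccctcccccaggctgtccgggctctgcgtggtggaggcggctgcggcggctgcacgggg
Prr5 start 2 (chr15:84680748-84681047, + strand): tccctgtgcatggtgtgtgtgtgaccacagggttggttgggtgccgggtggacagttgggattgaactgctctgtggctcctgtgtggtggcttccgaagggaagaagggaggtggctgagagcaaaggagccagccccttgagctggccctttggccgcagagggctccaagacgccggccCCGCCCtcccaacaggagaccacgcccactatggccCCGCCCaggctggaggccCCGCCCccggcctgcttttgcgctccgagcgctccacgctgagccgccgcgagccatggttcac
Sgk1 start 5 (chr10:21993640-21993939, + strand): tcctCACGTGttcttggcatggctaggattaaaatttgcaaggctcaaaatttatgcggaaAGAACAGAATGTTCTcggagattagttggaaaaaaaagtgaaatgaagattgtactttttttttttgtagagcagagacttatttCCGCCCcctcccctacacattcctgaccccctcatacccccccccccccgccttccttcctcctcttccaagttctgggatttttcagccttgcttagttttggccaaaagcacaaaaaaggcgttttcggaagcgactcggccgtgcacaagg
Sgk1 start 6 (chr10:21994416-21994715, + strand): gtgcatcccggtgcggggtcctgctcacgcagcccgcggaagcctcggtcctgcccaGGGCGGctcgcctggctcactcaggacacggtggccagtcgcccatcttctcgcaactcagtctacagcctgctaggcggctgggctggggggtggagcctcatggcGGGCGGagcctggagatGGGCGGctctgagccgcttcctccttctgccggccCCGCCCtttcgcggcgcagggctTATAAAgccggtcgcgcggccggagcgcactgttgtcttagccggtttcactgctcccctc

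The motifs searched were the palindromic glucocorticoid response element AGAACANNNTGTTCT, the FoxO core GTAAACA, the E-box CACGTG, the TATA box TATAAA and the GC box GGGCGG, and no 2 matches overlapped in the windows shown. Of 32851 windows of 27025 genes, 0.00913% held the glucocorticoid element, 3.65% the FoxO core, 7.15% the E-box, 13.6% the TATA box and 35.7% the GC box. The glucocorticoid element was in 3 windows, those of Sgk1 (start 5, beginning at position -189 from the start), Acnat2 and Gm35041. Only Sgk1 of these 3 genes had enough counts in the hearts to be tested. The same Sgk1 window held an E-box at position -246, and start 6 held a TATA box at position -11 and 4 GC boxes. Start 4 of Sgk1, not printed, held a TATA box at position -28. Of the windows of Prr5, start 1 held 1 GC box and start 2 held 3. The Armh4 window held none of the 5 motifs, and the FoxO core was found among the members only in the windows of Mapkap1. A match is a description of letters and not a bound site.

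Depth was similar in all libraries, with 11456503 to 13298660 counts each. Levels of 1 gene across hearts are given as CPM (counts relative to library size, after TMM scaling), and levels of different genes as the authors' FPKM, which divides by gene length. The words rose, fell and called are kept for an adjusted p under 0.05 in edgeR's quasi-likelihood test (Benjamini-Hochberg over 13373 genes). Errors of log2 changes are standard errors, and means are given with SD. Cardiomyocyte markers summed to 70333 to 97925 CPM with none of 8 at 0, so that heart muscle RNA was present in every library. WT_Aged_1 stood apart, with a sample weight in limma of 0.256 against 0.663 to 1.97 in the other hearts. It had the lowest level of all 16 hearts in Rptor, Deptor and Mlst8 and the highest in Rictor. The ageing changes of Prr5, Mapkap1 and Sgk1 in WT hearts are given with and without it. The log2 differences of Rptor, Deptor, Mlst8 and Rictor are given only with it.

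**Figure D1:**
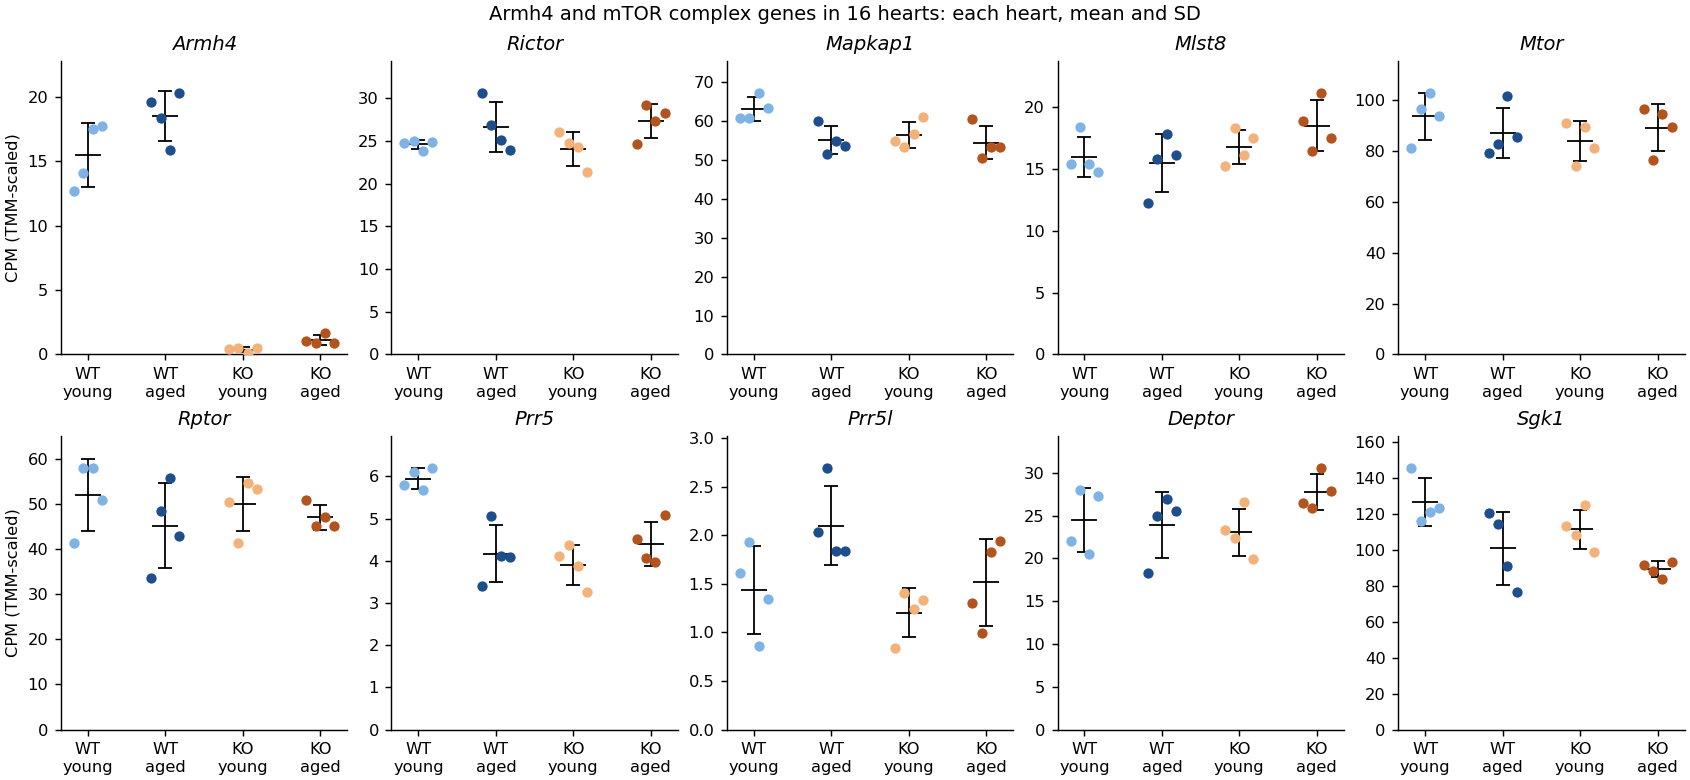
TMM-scaled CPM (vertical axes, starting at 0) of the 10 members in each of 16 hearts; points are hearts, bars the mean and SD of 4 hearts. Armh4 is at most 1.68 CPM in KO hearts and at least 12.7 in WT hearts, and for Prr5 the 4 young WT hearts lie above the other 12.

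Armh4, the targeted gene, was almost absent from KO hearts at both ages. Its level was 12.7, 14.1, 17.5 and 17.7 CPM in young WT hearts and 19.5, 18.3, 15.9 and 20.3 CPM in aged WT hearts. In KO hearts it was 0.420, 0.494, 0.0825 and 0.500 CPM when young and 1.07, 0.911, 1.68 and 0.889 CPM when aged. Every KO heart was far below every WT heart, and every aged KO heart was above every young KO heart, while the WT ages overlapped. Loss of the gene gave a log2 change of -5.33 ± 0.25 at 8 weeks (adjusted p = 3e-10) and of -4.01 ± 0.21 at 25 months (adjusted p = 1.23e-09, edgeR quasi-likelihood test). These values check the labels. The sources used here do not say which exons the allele lacks, so the counts that remain in KO hearts may include transcript outside the deleted part.

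The remainder of Armh4 in KO hearts was small but not the same at both ages. Summed over 4 hearts it was 18 counts in young KO against 747 in young WT hearts, 2.42% of the WT level (exact 95% interval 1.43 to 3.85). In aged hearts it was 58 counts against 934, 6.195% (4.67 to 8.08), and aged KO hearts had 306% of the young KO level (178 to 552). These intervals cover counting error only. From young to aged, Armh4 rose by 1.59 ± 0.37 on the log2 scale in KO hearts (adjusted p = 0.0112, edgeR), while in WT hearts the difference was 0.26 ± 0.15 (adjusted p = 0.245, 95% interval -0.06 to 0.58). The difference between these ageing changes was 1.33 ± 0.40 (adjusted p = 0.153, edgeR). On log2(FPKM + 1) with limma, the rise in KO hearts was 0.31 with an adjusted p of 0.0745. The rise rests on 1 to 6 counts a heart in young KO and 11 to 22 in aged KO hearts.

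The knockout left the mRNA levels of the other 9 members without a called difference at either age. In young hearts 1 of 10 members was called, Armh4, against 0.322% of all genes, and in aged hearts again Armh4 alone, against 1.11%. Over the mean of both ages Armh4 was once more the 1 member called (0.0523% of all genes), with a log2 change of -4.67 ± 0.16. At an unadjusted p under 0.05, for which no share over all genes is given, 2 of the 9 others passed in young hearts and 1 in aged hearts. Their median log2 difference was -0.16 in young and 0.038 in aged hearts, with medians over all genes of 0.0049 and 0.0035. The 95% intervals of the 9 ran from -0.91 at the lowest to 0.35 at the highest in young hearts and from -1.02 to 0.50 in aged hearts. Of the 10 members, 2 had no overlap between young KO and WT hearts, Armh4 and Prr5 (8.49% of all genes had none), and 1 had none between aged KO and WT hearts, Armh4 (5.04%). Fewer cells of a type and less RNA per cell cannot be told apart in whole hearts.

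**Figure D2:**
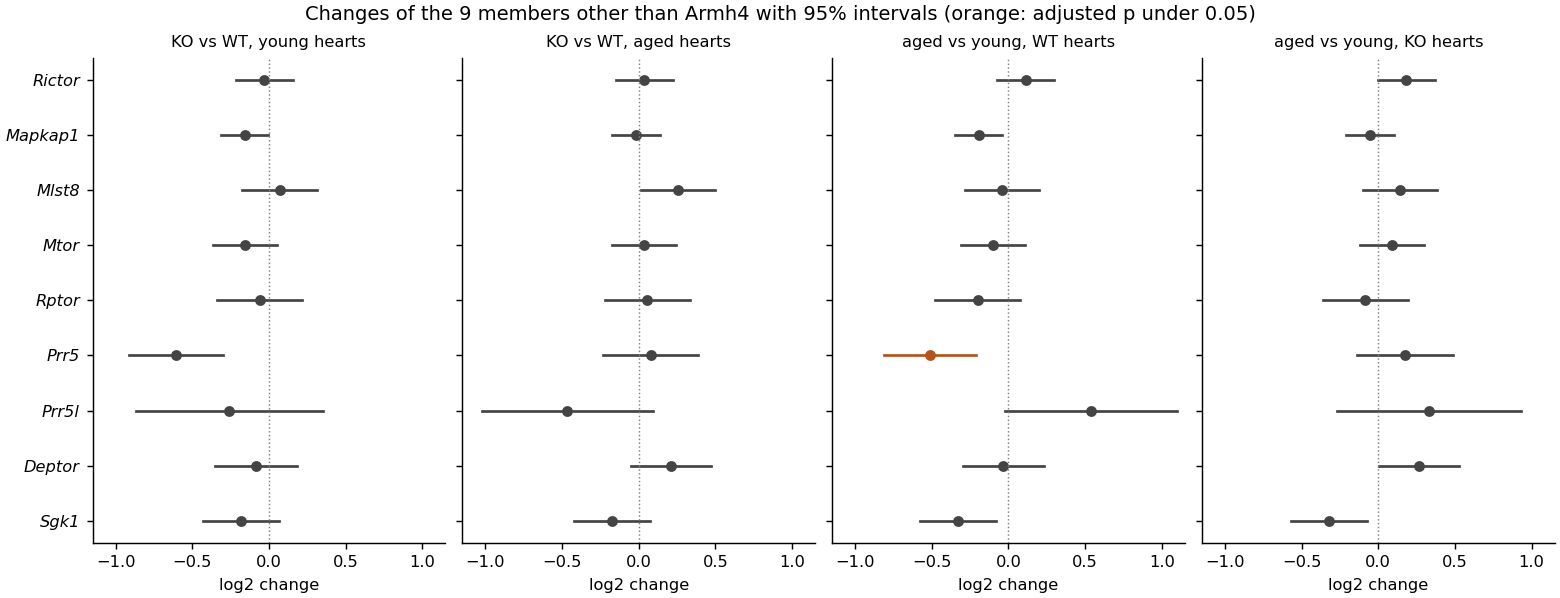
Log2 change (horizontal axis) of the 9 members other than Armh4 in 4 comparisons, points with 95% intervals; orange marks an adjusted p under 0.05 (edgeR). The 1 interval in orange is that of Prr5 between aged and young WT hearts, at -0.51.

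Prr5, an accessory subunit of mTORC2, was highest in young WT hearts. Young WT hearts had 5.79, 6.11, 5.68 and 6.21 CPM, and aged WT hearts had 3.41, 5.07, 4.12 and 4.08 CPM. In KO hearts it stood at 4.12, 4.36, 3.88 and 3.25 CPM when young and 4.51, 4.06, 3.96 and 5.09 CPM when aged. All 4 young WT hearts lay above all other hearts, and the other 3 groups overlapped one another. Prr5 fell by 0.51 on the log2 scale with age in WT hearts (SE 0.14, adjusted p = 0.0159, edgeR). The difference between KO and WT was -0.61 ± 0.15 in young hearts (adjusted p = 0.0941, edgeR) and 0.078 ± 0.15 in aged hearts (adjusted p = 0.913), with a 95% interval of -0.23 to 0.39. Ageing in KO hearts gave 0.17 ± 0.15 (adjusted p = 0.548). The difference of the ageing changes, 0.68 ± 0.21, had an unadjusted p of 0.00381 and an adjusted p of 0.156 in edgeR, so the KO and WT ageing changes were not shown to differ.

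The Prr5 result depended on the measure and on 1 heart. Without WT_Aged_1 the ageing change in WT hearts was -0.41 with an adjusted p of 0.0524 (edgeR), and with only those 2 groups in the fit it was -0.50 with 0.0511. With sample weights in limma-voom, the young KO difference was -0.60 with an adjusted p of 0.0242. By FPKM the young WT hearts were at 2.13 to 2.44 and the aged WT hearts at 1.58 to 2.33, which overlap. On log2(FPKM + 1) the ageing change was -0.21 with an adjusted p of 0.129, and on log2(FPKM + 0.1) it was -0.30 with 0.146 (limma). The counts behind each heart were 39 to 76.

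The gene length that links the 2 measures was not constant for Prr5. Dividing Prr5 counts by FPKM gives an implied length, here relative to its mean over 16 hearts, of 0.978 to 1.25 in young WT, 0.886 to 1.18 in aged WT, 0.811 to 0.972 in young KO and at most 0.977 in aged KO hearts. Its coefficient of variation was 10.9%, against a median of 0.587% over 10843 genes with at least 1 FPKM, and 0.498% of those genes varied more. Prr5 has 2 RefSeq start windows, printed above, and the sources used here do not say which transcripts were counted. The implied length of Sgk1, which has 6 start windows, varied by 0.208%. Among the other members it varied by 0.231% (Rictor) to 4.00% (Prr5l).

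The summed smooth muscle and pericyte markers, like Prr5, were highest in young WT hearts, but the other groups were ordered otherwise. The 7 markers, none at 0, summed to 1613 to 1917 CPM in young WT, 1234 to 1467 in aged WT, 1415 to 1557 in young KO and 1293 to 1398 in aged KO hearts. As for Prr5, every young WT heart was above every other heart in this sum. Of the 7, 3 fell with age in WT hearts, where 21.9% of all genes were called. Between young KO and WT hearts 0 were called in edgeR (0.322% of all genes), and 3 had an unadjusted p under 0.05. The log2 differences of the 7 there ran from -1.16 to 0.198, with a median of -0.75. The sum thus does not stand for each marker. The part of these cells in the Prr5 difference was not tested.

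**Figure D3:**
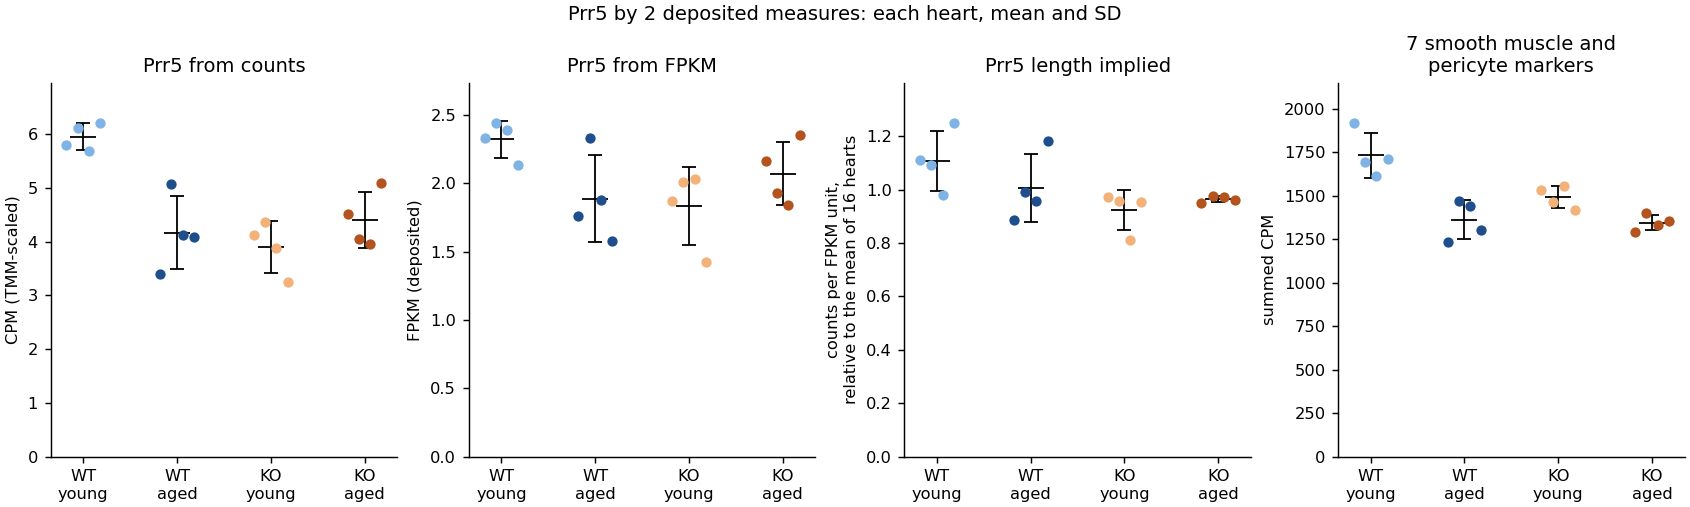
Prr5 in each heart as CPM from counts, as deposited FPKM and as the implied length (counts per FPKM relative to the mean of 16 hearts), and the summed CPM of 7 smooth muscle and pericyte markers; points are hearts, bars the mean and SD of 4. Young WT hearts stand above the other 12 in the first and last panels and overlap aged hearts in FPKM.

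Prr5l, the paralogous accessory subunit, was the least expressed member in WT hearts. It had 10 to 34 counts per heart. Its means were 1.44 ± 0.452 CPM in young WT, 2.10 ± 0.407 in aged WT, 1.20 ± 0.251 in young KO and 1.52 ± 0.446 in aged KO hearts (SD, n = 4). The groups overlapped in all 4 comparisons. The log2 difference of aged from young WT hearts was 0.54 ± 0.27 (adjusted p = 0.162, edgeR), with a 95% interval of -0.03 to 1.10. The intervals of the other 3 comparisons were -0.87 to 0.35 (young KO against WT), -1.02 to 0.09 (aged KO against WT) and -0.27 to 0.93 (ageing in KO), each of which includes 0.

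Rictor, the defining subunit of mTORC2, differed little between groups. Its mean was 24.6 ± 0.512 CPM in young WT, 26.6 ± 2.95 in aged WT, 24.1 ± 1.98 in young KO and 27.3 ± 1.96 in aged KO hearts (SD, n = 4). The highest heart was WT_Aged_1, at 30.7 CPM, and all groups overlapped. Its log2 difference between aged and young hearts, averaged over the genotypes, was 0.15 ± 0.06 (adjusted p = 0.0877, edgeR), and it reached an adjusted p of 0.04997 without WT_Aged_12. Between KO and WT the differences were -0.030 ± 0.089 in young and 0.038 ± 0.088 in aged hearts, with 95% intervals of -0.22 to 0.16 and -0.15 to 0.22.

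Mapkap1, whose protein SIN1 brings substrates to mTORC2, was lower in aged than in young WT hearts without passing the test over all genes. Young WT hearts had 60.8, 60.7, 67.3 and 63.3 CPM, and aged WT hearts had 60.1, 51.5, 54.9 and 53.7 CPM. In CPM no aged WT heart reached the lowest young WT heart, although WT_Aged_1 came close to it. By FPKM the ages overlapped, with WT_Aged_1 at 20.94 above the young WT range of 19.8 to 20.8. The log2 difference was -0.20 ± 0.07 (adjusted p = 0.0655, edgeR), and without WT_Aged_1 it was -0.22 with an adjusted p of 0.0448. In young KO hearts the values were 54.8, 53.3, 56.7 and 61.0 CPM and in aged KO hearts 60.5, 50.4, 53.3 and 53.4 CPM. The KO ages overlapped throughout, with a log2 difference of -0.053 ± 0.074 (adjusted p = 0.738).

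The subunits that both complexes share were close to level across groups. Mtor, the kinase, had means of 93.4 ± 9.13, 87.1 ± 9.80, 83.8 ± 7.90 and 89.1 ± 9.13 CPM in the WT young, WT aged, KO young and KO aged groups (SD, n = 4). The lowest adjusted p of its 4 comparisons was 0.501 in edgeR, and its 95% intervals ran from -0.37 to 0.30 across them. Mlst8 ran from 14.8 to 18.3, 12.2 to 17.8, 15.2 to 18.3 and 16.5 to 21.2 CPM in the same order. Its largest difference was that of aged KO from aged WT hearts, 0.26 ± 0.11 on the log2 scale (adjusted p = 0.407, edgeR), and those groups overlapped.

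Deptor, which binds and inhibits mTOR, was highest in aged KO hearts without a called difference. Its values there were 26.5, 25.9, 30.6 and 27.9 CPM, against 23.4, 22.4, 26.6 and 19.9 CPM in young KO hearts. In aged WT hearts it was 18.2, 25.0, 26.9 and 25.5 CPM and in young WT hearts 22.1, 28.0, 20.5 and 27.3 CPM. The groups overlapped in each comparison. Ageing in KO hearts gave a log2 difference of 0.27 ± 0.13 (adjusted p = 0.223, edgeR), and KO against WT in aged hearts gave 0.21 ± 0.12 (adjusted p = 0.580).

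Rptor, the subunit that defines mTORC1, spread more between hearts of 1 group than between groups. Its values ran from 41.2 to 58.0 CPM in young WT, 33.7 to 55.8 in aged WT, 41.2 to 54.6 in young KO and 45.0 to 50.8 in aged KO hearts. All groups overlapped, and the lowest heart was WT_Aged_1. The 4 log2 differences lay between -0.20 and 0.057, each with a standard error of 0.13, and their adjusted p-values were 0.298 to 0.934 (edgeR).

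Heart by heart, Mtor and Rptor varied together. Over 45 pairs of members, deviations of log2 CPM from the group mean were correlated over 16 hearts, with p-values from 100000 permutations within groups. The pair of Mtor and Rptor was the only one with an adjusted p under 0.05 for Pearson's r, which was 0.776 (permutation p = 0.00081, Benjamini-Hochberg 0.0364). Spearman's rho was 0.741 (permutation p = 0.00214, Benjamini-Hochberg 0.0963). Without the 2 hearts farthest from the median of Mtor, KO_Aged_115 and WT_Aged_5, r was 0.781. These were picked by Mtor alone, so WT_Aged_1, the lowest heart in Rptor, stayed in, and r without it is not given. With Mtor, the mTORC2 subunits Rictor and Mapkap1 had an r of -0.36 and 0.346, each with an adjusted p of 0.657, and no difference between pairs was tested. All pairs share the library of each heart.

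Sgk1, a kinase that mTORC2 phosphorylates, fell with age. Its values were 146, 116, 121 and 123 CPM in young WT hearts and 121, 114.5, 91.0 and 76.8 CPM in aged WT hearts. In KO hearts they were 113, 108, 125.2 and 98.9 CPM when young and 91.5, 88.4, 83.8 and 93.5 CPM when aged. In CPM every aged KO heart was below every young KO heart. In WT hearts 1 aged heart, WT_Aged_1, lay within the young range and the other 3 were below it. By FPKM the KO ages overlapped, at 42.12 to 54.29 when young and 38.72 to 42.52 when aged. Averaged over both genotypes, the decrease was -0.32 ± 0.08 on the log2 scale (adjusted p = 0.00711, edgeR), to 0.799 of the young level. Over 22 alternative settings the adjusted p of this average stayed between 0.00145 and 0.0431. The separate changes were of the same size, -0.33 ± 0.12 in WT (adjusted p = 0.0535) and -0.32 ± 0.12 in KO hearts (adjusted p = 0.114). Each alone missed the threshold in the main edgeR fit. Without WT_Aged_1 the WT change was -0.41 with an adjusted p of 0.0147, and without WT_Aged_4 it was -0.38 with 0.0379. The WT change also passed with DESeq2 (adjusted p = 0.0389), with limma-voom (0.0226) and in edgeR without the count filter (0.0449). The KO change passed with limma-voom (adjusted p = 0.0362) and in edgeR with only the 2 groups fitted (0.0221). Under the remaining alternatives each stayed above the threshold. Between KO and WT, Sgk1 differed by -0.18 ± 0.12 in young hearts (adjusted p = 0.577) and by -0.17 ± 0.12 in aged hearts (adjusted p = 0.645), with intervals of -0.43 to 0.06 and -0.42 to 0.07. The interaction was 0.0091 ± 0.17, with a 95% interval of -0.34 to 0.36.

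Endothelial markers are given beside Sgk1. Their 6 genes, none at 0, summed to 779 to 996 CPM in young WT, 792 to 879 in aged WT, 830 to 1118 in young KO and 693 to 825 in aged KO hearts. In KO hearts every aged sum lay below every young sum, as for Sgk1 in CPM, though the nearest sums were 825 and 830. In WT hearts the ages overlapped. The summed cardiomyocyte markers were 85745 to 96005 CPM in young WT, 70333 to 85014 in aged WT, 82943 to 97925 in young KO and 70971 to 80565 in aged KO hearts. In both genotypes every aged cardiomyocyte sum lay below every young one, and the same held for the smooth muscle and pericyte sums. The separation by age was therefore not particular to endothelial markers. The part of any of these cells in the decrease of Sgk1 was not tested.

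With age, 1 of 10 members was called in WT hearts (Prr5) and 1 in KO hearts (Armh4), against 21.9% and 7.67% of all genes. Averaged over the genotypes, 2 were called, Armh4 and Sgk1, against 27.7% of all genes. For Armh4 that average of 0.92 ± 0.20 combines a rise in KO hearts with an uncalled difference in WT hearts. No member had a called interaction of genotype and age (0.576% of all genes had one). An unadjusted p under 0.05 was found for 2, Armh4 and Prr5, with no share over all genes given. In CPM the ages did not overlap for 2 members in WT hearts, Mapkap1 and Prr5 (21.7% of all genes). In KO hearts they did not overlap for 2, Armh4 and Sgk1 (15.7%). By FPKM the same ages did overlap for Mapkap1, Prr5 and Sgk1. For the 9 members other than Armh4 the median log2 ageing difference was -0.10 in WT and 0.14 in KO hearts, against -0.011 and -0.0087 over all genes.

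Per length, the members kept nearly 1 order in all groups. In young WT hearts Sgk1 had a mean of 55.7 ± 7.25 FPKM, Mapkap1 20.4 ± 0.422, Mtor 13.2 ± 0.546 and Rptor 8.81 ± 1.05 (SD, n = 4). Mlst8 (5.11 ± 0.548 FPKM) and Armh4 (5.10 ± 0.691) followed and overlapped each other. Deptor (2.92 ± 0.486 FPKM) and Rictor (2.65 ± 0.131) overlapped too, and Prr5 (2.32 ± 0.136) and Prr5l (0.350 ± 0.119) came last. In young WT hearts all other neighbours in the order were separated in every heart. In aged WT hearts Armh4, at 6.44 ± 0.808 FPKM, ranked above Mlst8 and overlapped both it and Rptor, and Prr5 overlapped Deptor. In young KO hearts Armh4 was below every other member, at 0.125 ± 0.0645 FPKM, and in aged KO hearts, at 0.398 ± 0.138 FPKM, it overlapped Prr5l at 0.400 ± 0.109.

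**Figure D4:**
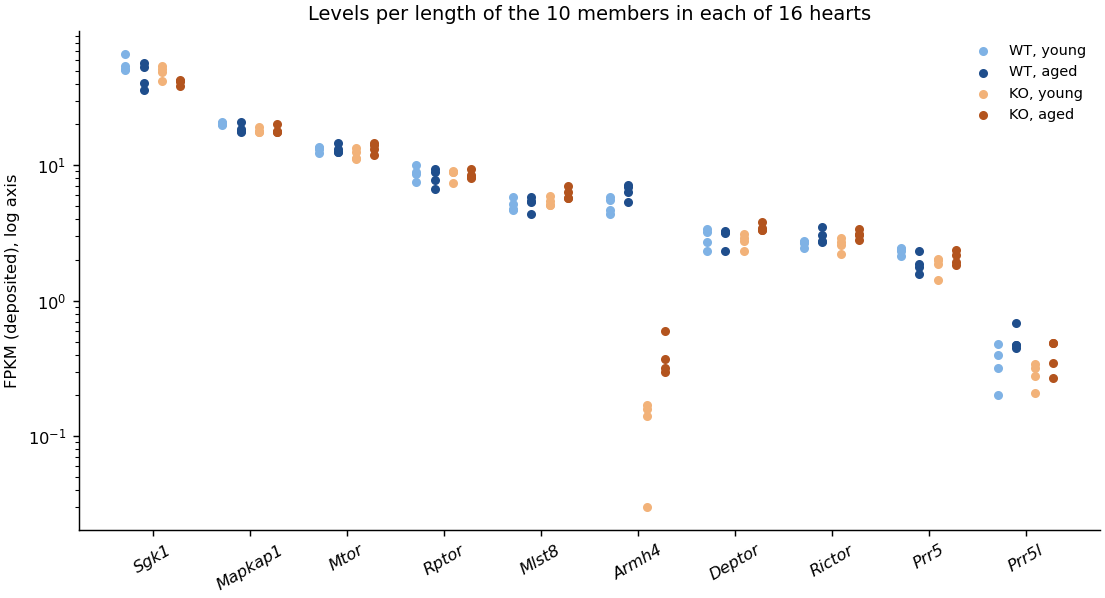
Deposited FPKM (vertical log axis) of the 10 members in each heart, in the order of young WT means; each point is 1 heart and colours are the 4 groups. Sgk1 is highest in every group, and Armh4 drops from 4.34 to 7.14 FPKM in WT hearts to 0.03 to 0.60 FPKM in KO hearts.

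Ratios of FPKM describe the balance of subunits as mRNA, with no test, and no share of other gene pairs without overlap is given. Prr5 stood at 5.08 to 11.95 times Prr5l in young WT and at 3.36 to 4.18 times in aged WT hearts, which do not overlap. In KO hearts this ratio was 4.44 to 8.90 when young and 3.76 to 7.15 when aged, which do. The highest ratio of Prr5 to Prr5l, 11.95, was that of WT_Young_39, where Prr5l had 10 counts (0.20 FPKM). The ratio also carries the implied length of Prr5, which varied by 10.9%. Mapkap1 stood at 7.28 to 8.34 times Rictor in young WT hearts and at 5.78 to 6.71 times in aged WT hearts, which do not overlap. In KO hearts the ratio of Mapkap1 to Rictor was 6.23 to 8.56 when young and 5.20 to 7.22 when aged, which do. Rictor was at 0.269 to 0.364 of Rptor in young WT and 0.290 to 0.528 in aged WT hearts, and the ratio of 0.528 was that of WT_Aged_1. Mlst8 was at 0.345 to 0.431 of Mtor in young WT, 0.348 to 0.426 in aged WT, 0.378 to 0.532 in young KO and 0.433 to 0.500 in aged KO hearts. Aged KO hearts were above aged WT hearts in this ratio, and young KO hearts overlapped all other groups. Deptor was at 0.174 to 0.251 of Mtor in young WT, 0.185 to 0.251 in aged WT, 0.204 to 0.251 in young KO and 0.226 to 0.281 in aged KO hearts, and all groups overlapped.

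The pathway around the members was read from 7 lists with 120 genes, 119 of them tested, which were chosen for their place in the pathway. Between KO and WT, 1 gene was called in young hearts and 1 in aged hearts, 0.840% of the list genes each time, against 0.322% and 1.11% of all genes. Fkbp5, a glucocorticoid-induced co-chaperone, was 44.1 ± 8.23 CPM in young WT and 20.6 ± 8.85 CPM in young KO hearts (SD, n = 4), and these ranges did not overlap. It fell by 1.09 on the log2 scale in young KO hearts (SE 0.23, adjusted p = 0.0497, edgeR). That call is near the threshold and was lost in 11 of the fits that left out 1 heart, with adjusted p-values of 0.00533 to 0.211. Tfeb, a transcription factor for lysosomal genes that mTORC1 holds in the cytoplasm, was 22.7 ± 1.03 CPM in aged WT and 29.2 ± 1.16 CPM in aged KO hearts. It rose by 0.36 ± 0.08 in aged KO hearts (adjusted p = 0.0271, edgeR). Leaving out WT_Aged_1, WT_Aged_5, KO_Aged_115, KO_Aged_122 or KO_Aged_125 each ended the Tfeb call, with adjusted p-values up to 0.120. No list gene had a called interaction in edgeR. An unadjusted p under 0.05 was found for 17, and the share of all genes with one is not given, so no excess is read from that count.

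With age, 25 of the 119 pathway genes were called in WT hearts, 11 higher and 14 lower, 21.0% against 21.9% of all genes. In KO hearts 13 were called, 9 higher and 4 lower, 10.9% against 7.67%. Upstream of the complexes, in the PI3K arm, 2 of 16 rose in WT hearts and 1 fell. Pik3cd, a catalytic subunit of PI3K found mainly in leukocytes, rose by 1.23 ± 0.15 on the log2 scale (adjusted p = 1.35e-05), and Phlpp1, a phosphatase that acts on Akt, fell by 0.41 (SE 0.11, adjusted p = 0.0151). In KO hearts their log2 ageing differences were 0.35 ± 0.15 (adjusted p = 0.162) and -0.33 ± 0.11 (adjusted p = 0.0833, edgeR). Neither ageing change was shown to differ between genotypes, with adjusted interaction p-values of 0.0657 and 0.893 (edgeR). Summed macrophage markers were 181 to 248 CPM in young WT and 500 to 717 CPM in aged WT hearts, with none of 10 at 0, and their part in the Pik3cd change was not tested. Of 34 genes of the TSC, Rheb and Rag branch, 1 was called in WT hearts, Lamtor5, a subunit of the lysosomal Ragulator, at 0.35 ± 0.10 (adjusted p = 0.0151). That call was lost without WT_Young_39, with an adjusted p of 0.0575. In KO hearts the log2 ageing difference of Lamtor5 was 0.042 ± 0.098 (adjusted p = 0.851, edgeR).

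Among the AGC kinases, the family to which the substrates of mTORC2 belong, 3 of 9 tested genes rose with age in WT hearts and 1 fell, where 21.9% of all genes were called. In KO hearts 2 rose and 0 fell, where 7.67% were called. Prkcq, protein kinase C theta, had 5.56 ± 1.67 CPM in WT hearts when young and 26.1 ± 4.88 CPM when aged, against 6.83 ± 0.492 and 24.3 ± 3.04 CPM in KO hearts. It rose by 2.23 ± 0.18 in WT (adjusted p = 1.62e-07) and by 1.83 ± 0.17 in KO hearts (adjusted p = 3.9e-06, edgeR). Prkcb rose by 1.09 ± 0.14 in WT hearts and by 0.55 ± 0.14 in KO hearts, with adjusted p-values of 1.86e-05 and 0.0226. Prkcb and Prkcq are also known from leukocytes. With age 10 of 10 macrophage markers rose in WT hearts and 8 of 10 in KO hearts, where they summed to 214 to 268 CPM when young and 379 to 411 CPM when aged. The T and NK cell markers, of which 2 of 3 tested rose in WT hearts and 0 in KO hearts, summed to at most 16.2 CPM in any heart. The part of these cells in the rises of Prkcq and Prkcb was not tested. Prkca, the main classical isoform of heart muscle, fell by 0.49 in WT hearts (adjusted p = 0.00346) and had a log2 difference of -0.30 in KO hearts (adjusted p = 0.105). The ageing changes of these 3 genes were not shown to differ between genotypes, with adjusted interaction p-values of 0.551, 0.258 and 0.675.

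Of 22 mTORC1 partners and outputs, 4 fell with age in WT hearts and 0 rose, and in KO hearts 1 fell and 0 rose. The shares of all genes called in either direction were 21.9% and 7.67%. Lpin1, a phosphatidate phosphatase that mTORC1 regulates, fell by 0.68 in WT (adjusted p = 0.00199) and by 0.51 in KO hearts (adjusted p = 0.0310). Ddit4 (REDD1), an inhibitor of mTORC1, fell by 1.14 in WT hearts (adjusted p = 0.00985), and its log2 difference was -0.79 in KO hearts (adjusted p = 0.124). Tfeb fell by 0.42 in WT hearts (adjusted p = 0.000705), with a difference of -0.17 in KO hearts (adjusted p = 0.196). Of 14 FoxO genes and targets, which mTORC2 opposes through Akt and SGK1, Pdk4 rose by 1.77 and 1.56 in WT and KO hearts and Bcl6 fell by 0.88 and 0.91. Pdk4, an inhibitor of glucose oxidation, had adjusted p-values of 0.000643 and 0.00533, and Bcl6, a transcriptional repressor, of 0.00385 and 0.00811 (edgeR).

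The glucocorticoid-induced genes, the class to which Sgk1 belongs, moved in both directions with age. Of 18, 4 rose and 5 fell in WT hearts, and 5 rose and 2 fell in KO hearts, with 21.9% and 7.67% of all genes called. Among the falls in WT hearts, those of Klf9 and Tsc22d3 were lost in 11 and 5 of the fits that left out 1 heart, and among the rises in KO hearts that of Fkbp5 was lost in 10. Mt2, a metallothionein, rose by 1.74 and 1.98, and Angptl4, an inhibitor of lipoprotein lipase, by 1.75 and 1.13, in WT and KO hearts. Dusp1, a MAP kinase phosphatase, fell by 0.62 and 0.50, and Errfi1, a feedback inhibitor of EGFR, by 0.81 and 0.77. In KO hearts the ageing calls of Prkcb, Lpin1, Dusp1, Errfi1 and Angptl4 were lost in 3, 6, 3, 2 and 5 of the fits that left out 1 heart, and each of the 8 KO hearts ended at least 1 of them (adjusted p-values up to 0.107). The median log2 ageing difference of the list was -0.26 in WT and 0.23 in KO hearts, against -0.011 and -0.0087 over all genes. Of 9 substrates and ion targets of SGK1, 1 rose and 3 fell in WT hearts. Slc6a6, the taurine transporter, rose by 0.60 ± 0.11 in WT and 0.77 ± 0.11 in KO hearts (adjusted p = 0.000608 and 0.000304, edgeR). Slc9a3r2, a scaffold, and Kcnq1, a potassium channel, fell by 0.39 and 0.34 in WT hearts. These calls were lost in 3 and 5 of the fits that left out 1 heart, for both genes also without WT_Aged_1, with adjusted p-values up to 0.0806 and 0.0893.

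**Figure D5:**
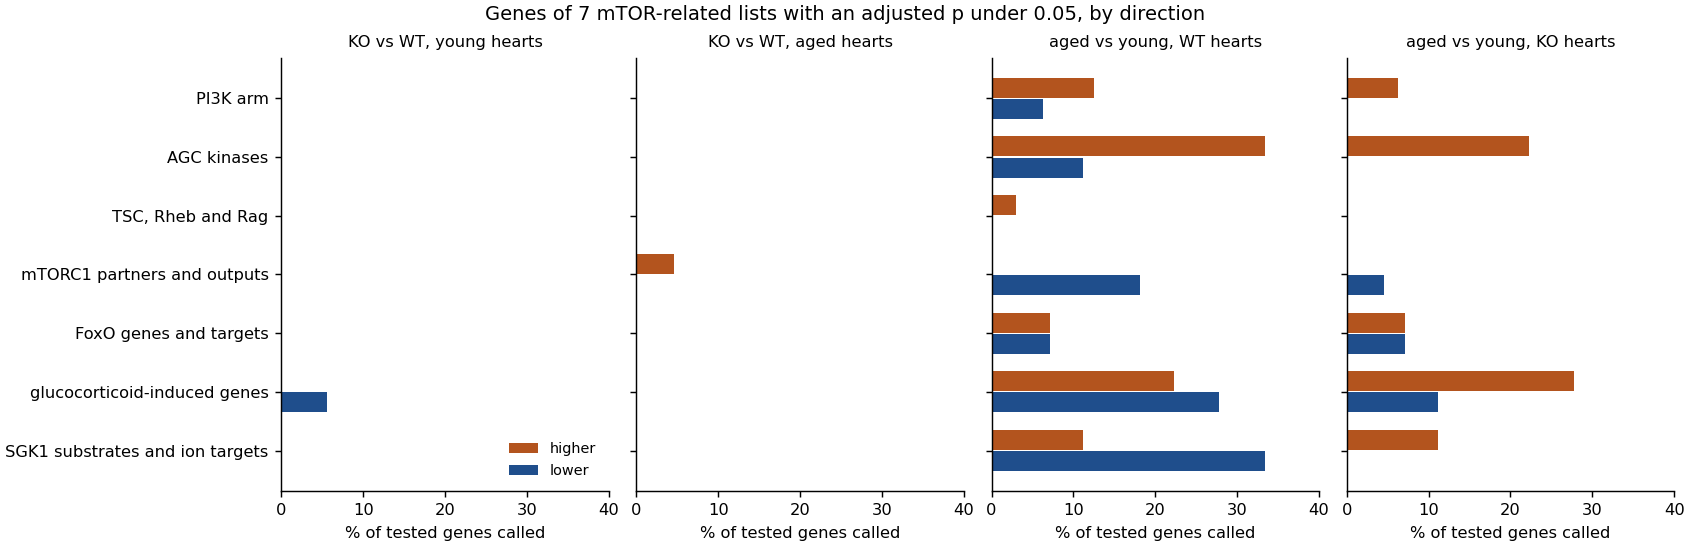
Percent of the tested genes of 7 pathway lists (rows) that were called higher (orange) or lower (blue) at an adjusted p under 0.05 (edgeR) in 4 comparisons. The KO panels hold 1 called gene each, Fkbp5 and Tfeb, and the ageing panels 25 and 13.

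The genes with levels most like those of Armh4 over the 16 hearts were Sdcbp2, Tstd3, Gtf3c3, Tmed9 and Irak4, with Pearson correlations of log2 CPM from 0.835 down to 0.778. Those most opposite were H1f0 (-0.82), Ccn1, Asb13, Gm13306 and Igflr1 (-0.80). Since Armh4 splits the hearts by genotype, this measure ranks genes by their KO difference. Of these 10 genes, only Ccn1, a matricellular protein, was called, and in young KO hearts alone, where it was higher by 0.67 on the log2 scale (adjusted p = 0.0425, edgeR). For Sgk1 the most alike genes were S1pr1, an endothelial receptor for a sphingolipid, at 0.931, then Tcim, Cttnbp2nl, Klf6 and Errfi1, the last at 0.849. For Deptor they included Rere at 0.849, Gpalpp1, LOC118568297 and Lrp1 at 0.785. All of these correlations are over the same 16 libraries.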

How the data were processed

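Whole mouse hearts were sequenced as total RNA in 16 libraries, 4 per group, per the labels. The authors deposited expected counts per gene and FPKM, which divides by gene length and depth. The submitters' processing notes name GRCm39, HISAT and Bowtie2, and the sources used here name no counting program. The members' counts were whole in all 16 libraries, and other counts were rounded. edgeR 4.0.16 (R 4.3.3; filterByExpr, TMM, quasi-likelihood F test, 1 fit of 4 groups, Benjamini-Hochberg over 13373 genes) gave all main tests, and the script was tested on simulated data. CPM for correlations used a prior count of 2. Alternatives were RLE scaling, DESeq2 1.42.0, limma 3.58.1 (voom with sample weights; log2(FPKM + 1) and log2(FPKM + 0.1)), no filter, fits of 2 groups, and each heart left out. Members, gene lists and tests were chosen with earlier results of these data known. The genes named are the members, list genes called between KO and WT or in the interaction, up to 6 per list by adjusted p for ageing in WT hearts (some were left out), and the genes most correlated with members. Some genes are not reported here. No sequencing batch is named in the sources used here.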

Additional observations from a re-analysis of the deposited data

How the results depend on the processing

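No paired analysis was possible because the groups share no animal numbers. Of the members' log2 changes under the alternatives, 1504 kept their direction and their side of the threshold, 12 gained a call, 5 lost one, and 58 changed sign while called in neither setting; none that was called reversed. The number of members called was 1 between young KO and WT hearts and 2 with limma-voom (Prr5 added). For ageing in WT hearts it was 1, but 2 with DESeq2, 3 with limma-voom, 2 without the count filter, 0 on log2(FPKM + 1), 0 on log2(FPKM + 0.1), 0 with only 2 groups fitted, and 1 to 2 with a heart left out. Without WT_Aged_1 the count of 2 was made of Mapkap1 and Sgk1. For ageing in KO hearts it was 1, but 2 with limma-voom, 0 on log2(FPKM + 1) and 2 with only 2 groups fitted. The other member counts stayed within 1.5 times.

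Counts of pathway genes called, an alternative chosen after seeing the data, were 1 between young KO and WT hearts, 4 with DESeq2, 4 with limma-voom, 0 on log2(FPKM + 1) and 0 to 1 with a heart left out. Between aged KO and WT hearts they were 1, 2 with DESeq2, 0 with limma-voom, 0 on log2(FPKM + 1), 0 on log2(FPKM + 0.1), 0 with only 2 groups fitted, and 0 to 2 with a heart left out. For ageing in KO hearts they were 13, 21 with DESeq2, 24 with limma-voom, 20 with only 2 groups fitted and 9 to 21 with a heart left out, the highest without WT_Aged_1. For ageing in WT hearts they were 25, and 19 to 30 with a heart left out.

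Over all genes, calls between young KO and WT hearts numbered 43, 15 to 188 under other settings and 3 to 72 with a heart left out; between aged KO and WT hearts 149, 24 to 261 and 50 to 258; for ageing in KO hearts 1026, 991 to 1501 and 643 to 1438; and for the interaction 77, 51 to 218 and 39 to 179. For the KO mean they were 7, 7 to 83 and 4 to 44. The largest absolute median log2 change of all genes under any setting was 0.062, on log2(FPKM + 0.1). DESeq2 gave no adjusted p for Prr5l in 1 comparison. Depth limits Prr5, Prr5l and Armh4 in KO hearts, which had 39 to 76, 10 to 34 and 1 to 22 counts a heart.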

Other observations

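The genes most like each of the other members over the 16 hearts, by the correlation of log2 CPM, are given as a description. For Rptor these were Acad12 (0.934) and Tnrc6c (0.927), and for Mtor Asb18 (0.923) and Tnks (0.903). For Mapkap1 they were Supv3l1 (0.921), a mitochondrial RNA helicase, and Fbxl22 (0.884), and for Mlst8 Rgma (0.805) and Pi4k2a (0.791). Rictor varied most like Tubb3 (0.888) and Atad5 (0.856). Prr5l, at its low counts, varied most like Cytip (0.808), a gene of leukocytes, and Traip (0.778). For Prr5 the companions were Rbpms (0.807) and Slc4a8 (0.797). Slc4a8, a bicarbonate transporter, stood at means of 9.07, 5.55, 4.65 and 5.98 CPM in the WT young, WT aged, KO young and KO aged groups, and its log2 difference between young KO and WT hearts was -0.96 with an adjusted p of 0.0779 (edgeR).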
